A study of Mus musculus with 18 samples.

Results

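Sites bound by Tbx5 in forelimb buds that also carried a Pitx1 summit in hindlimb buds, and that lay in or near a gene, numbered 3039. They were chosen from 10273 deposited Tbx5 summits by asking for a Pitx1 summit within 200 bp in the longer of the deposited Pitx1 lists, which holds 54941 summits, and for a protein-coding gene that contained the Tbx5 summit or ended within 100 kb of it. Of 7916 Tbx5 summits near genes, 38.4% were shared by this rule (95% exact Clopper-Pearson interval 37.3% to 39.5%), and this share is what the rule itself sets. The 3039 sites were paired with 3038 of 44784 Pitx1 summits near genes (6.78%), since 1 of these served 2 sites. They were set beside 4877 Tbx5 summits near genes without a Pitx1 summit within 200 bp, 41746 Pitx1 summits near genes without a Tbx5 summit within that distance, and 1023 shared sites over 100 kb from any protein-coding gene.

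The Tbx5 library came from forelimb buds at embryonic stage e10.5 and was pulled down with a homemade antibody named NP1723. The Pitx1 library came from hindlimb buds at embryonic stage e11.5 and was pulled down with a homemade antibody named 960A. Both used wild type embryos of CD1, an outbred mouse stock, collected by stage, and limb buds hold mesenchyme, ectoderm, vessels and migrating muscle precursors together. With 1 library per factor, factor, limb, stage and antibody cannot be told apart, no difference has a replicate check, and no test over samples was possible. Peak names of the Tbx5 list carry the tag rep2, and whether the list stands for 1 replicate or a merge is unknown. Intervals on shares cover the counting of summits only.

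Tbx5 is a T-box transcription factor that is present in the forelimb bud and is needed for the forelimb to form. Pitx1 is a paired-type homeodomain factor of the hindlimb bud that helps to give the hindlimb its identity, in part by way of Tbx4, the close relative of Tbx5. A chromatin immunoprecipitation peak marks DNA recovered with a factor, its summit is the base of highest read coverage, and the gene that lies nearest need not be the gene that is regulated.

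Each summit carries the authors' own score, which is read here as −log10 q, so that a larger score stands for a smaller q-value. The lowest scores, 1.42 in the Tbx5 list and 1.31 in the longer Pitx1 list, lie above the −log10 of a q-value of 0.05. A score depends on the depth of its library, which is unknown, so Tbx5 and Pitx1 scores are set side by side below but not compared in size. Ranks run from 1, the highest score, within each list.

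Some shared sites fell inside a promoter window, 250 bases before to 50 after an annotated start, and the sequences upstream of 7 such starts show the sequence at or just before the summits. Windows from RefSeq (build GRCm38.p6, the patched form of mm10) were at hand for 17491 of 21883 protein-coding genes, and 114 of the 3039 shared sites (3.75%) lay in one. The D6Wsu163e sequence is shown because its site is among the 10 strongest at gene ends. Those of Dusp6 and Tbx18 are shown as genes of limb signalling and patterning, and those of Surf6, Abraxas2, Zc3h6 and Uck2 because they hold a searched motif; these 6 were chosen after their values were seen. Capitals mark the T-box half-site GGTGTGA or the Pitx core GGATTA, in either orientation, and each sequence runs 5′ to 3′ on the strand of the gene and ends at the base before the annotated start.
D6Wsu163e, chr6:126939716-126939965, plus strand: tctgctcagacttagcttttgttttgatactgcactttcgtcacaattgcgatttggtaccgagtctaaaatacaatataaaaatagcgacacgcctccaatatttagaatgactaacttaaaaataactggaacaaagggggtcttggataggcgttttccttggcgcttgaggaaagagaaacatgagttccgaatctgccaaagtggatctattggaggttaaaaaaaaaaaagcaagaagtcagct
Dusp6, chr10:99262981-99263230, plus strand: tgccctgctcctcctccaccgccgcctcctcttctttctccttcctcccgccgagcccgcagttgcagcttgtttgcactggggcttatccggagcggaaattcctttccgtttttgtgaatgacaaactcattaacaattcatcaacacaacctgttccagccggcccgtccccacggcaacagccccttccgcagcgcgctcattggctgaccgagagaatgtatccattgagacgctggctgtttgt
Tbx18, chr9:87731261-87731510, minus strand: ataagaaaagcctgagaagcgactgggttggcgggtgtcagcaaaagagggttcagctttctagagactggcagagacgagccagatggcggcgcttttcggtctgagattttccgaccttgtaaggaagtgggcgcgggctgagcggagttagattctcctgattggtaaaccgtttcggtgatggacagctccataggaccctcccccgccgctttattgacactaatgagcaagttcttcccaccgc
Surf6, chr2:26902888-26903137, minus strand: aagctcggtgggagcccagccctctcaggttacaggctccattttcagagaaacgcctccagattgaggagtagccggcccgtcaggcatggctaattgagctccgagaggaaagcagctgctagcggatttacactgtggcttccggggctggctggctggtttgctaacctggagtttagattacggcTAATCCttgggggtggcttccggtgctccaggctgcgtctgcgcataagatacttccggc
Abraxas2, chr7:132858975-132859224, plus strand: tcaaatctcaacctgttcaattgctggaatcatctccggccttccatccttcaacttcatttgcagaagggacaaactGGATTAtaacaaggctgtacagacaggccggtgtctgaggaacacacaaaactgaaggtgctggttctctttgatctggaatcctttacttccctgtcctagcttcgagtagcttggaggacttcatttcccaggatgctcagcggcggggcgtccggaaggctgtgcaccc
Zc3h6, chr2:128967152-128967401, plus strand: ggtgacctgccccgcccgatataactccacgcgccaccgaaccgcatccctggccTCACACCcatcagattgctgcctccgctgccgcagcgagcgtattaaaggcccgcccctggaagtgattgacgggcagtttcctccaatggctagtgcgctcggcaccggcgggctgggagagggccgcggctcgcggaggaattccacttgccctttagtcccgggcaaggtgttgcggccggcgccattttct
Uck2, chr1:167285128-167285377, minus strand: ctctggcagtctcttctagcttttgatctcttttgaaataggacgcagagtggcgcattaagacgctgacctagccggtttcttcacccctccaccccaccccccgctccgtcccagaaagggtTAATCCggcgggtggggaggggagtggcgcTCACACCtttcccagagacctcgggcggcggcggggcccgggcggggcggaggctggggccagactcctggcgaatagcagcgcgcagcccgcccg

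At these windows the Tbx5 and Pitx1 summits sat at the following distances from the annotated start. They were 21 and -50 bp for D6Wsu163e, -162 and -139 bp for Dusp6 and 3 and 94 bp for Tbx18. For Surf6 they were -124 and -113 bp, for Abraxas2 -114 and -214 bp and for Zc3h6 -47 and -164 bp. For Uck2 they were -107 and -239 bp. The marked Pitx core ran from -60 to -55 bp in Surf6 and from -172 to -167 bp in Abraxas2. The marked T-box half-site ran from -195 to -189 bp in Zc3h6 and from -96 to -90 bp in Uck2. A marked motif thus need not lie under the summit of its factor. Both Tbx18 summits and the Tbx5 summit of D6Wsu163e lay past the end of the printed sequence. The Pitx1 summit at Tbx18 also lay beyond the window. The Tbx5 score was 468.5 at Abraxas2, which encodes a scaffold of a deubiquitinating complex, against a Pitx1 score of 15.8 there. At Surf6, which encodes a nucleolar protein, the Tbx5 score was 15.4 and the Pitx1 score 163.8. Abraxas2 thus stood high in the Tbx5 list and Surf6 high in the Pitx1 list. In Uck2, a uridine-cytidine kinase gene and the only such window with both motifs, the scores were 4.13 for Tbx5 and 5.37 for Pitx1.

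The T-box half-site was found in 6 of 125 windows with a shared summit (4.8%, interval 1.78% to 10.2%), in 3.70% of 189 windows with a Tbx5 summit alone, in 3.01% of 2390 windows with a Pitx1 summit alone and in 3.68% of all 21262 windows. The Pitx core was found in 8 of the 125 windows (6.40%, interval 2.80% to 12.2%), against 1.06% of windows with Tbx5 alone, 12.6% with Pitx1 alone and 6.42% of all windows. Both shares for shared windows have intervals that include the share of all windows. Windows with a shared summit were placed by the Tbx5 summit, and the Pitx1 partner could lie outside, as at Wnt11, -407 bp from the start. Windows with Pitx1 alone hold their Pitx1 summit, so the 6.40% and 12.6% are not like for like. The median GC content was 57.3% in windows with a shared summit, 65% with Tbx5 alone, 56.7% with Pitx1 alone and 56.3% over all windows. Both strands were searched, a letter match is not a bound site, and the 2 motifs did not overlap in Uck2.

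The paired summits lay close together. The median distance between them was 60 bp, with quartiles of 27 and 107 bp, and 43.9% of pairs were at most 50 bp apart. The Pitx1 summit lay at the higher coordinate in 1535 pairs, at the lower in 1489, and on the same base in 15, so the shares to either side, 50.5% (48.7% to 52.3%) and 49.0% (47.2% to 50.8%), had intervals that met. The number of Tbx5 summits near genes was smaller at larger distances to the nearest Pitx1 summit, with 739 at 0 to 25 bp, 408 at 76 to 100 bp, 126 at 176 to 200 bp and 111 at 201 to 225 bp. The 99 pairs just inside the limit, 181 to 200 bp apart, had a median Tbx5 score of 10.3 and a median Pitx1 score of 15.1. The 89 pairs just outside it, 201 to 220 bp apart, had medians of 9.62 and 14.4.

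**Figure D1:**
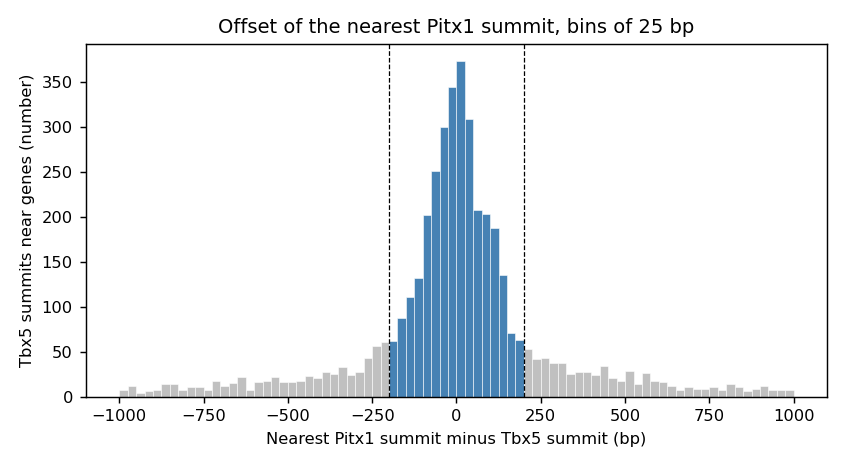
Number of Tbx5 summits near genes (vertical axis) by the position of the nearest Pitx1 summit minus that of the Tbx5 summit in bp (horizontal axis), in bins of 25 bp. Dashed lines mark the 200 bp limit, blue bars lie inside it and grey bars outside; the counts peak at the centre on both sides.

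Of the 176 pairs at most 5 bp apart, the first by the worse of its ranks lay in Lrmda, a gene of melanocyte development. This pair had a Tbx5 score of 103.5, a Pitx1 score of 187.4 and 3 bp between the summits. The next were in Optn, an autophagy receptor gene, with scores of 66.4 for Tbx5 and 170.7 for Pitx1, and near Mrpl23, a mitochondrial ribosomal protein gene, with 93.6 and 146.2. A pair 4 bp apart lay 57.7 kb beyond Boc, a hedgehog co-receptor gene, with scores of 128.1 and 89.3. A pair 3 bp apart lay inside Igf1, a growth factor gene, with a Tbx5 score of 24.6 and a Pitx1 score of 308.3. Coincident summits thus did not need high scores in both lists, and the 15 pairs on the same base ran between Tbx5 scores of 1.72 at Dnm1 and 183.2 at Efnb2, an ephrin gene.

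Shared sites had higher median scores than unshared ones in each list. The Tbx5 score of shared sites had a median of 11 with quartiles of 5.81 and 27.2, against a median of 7.02 with quartiles of 4.67 and 14.7 at Tbx5 sites without Pitx1. The Pitx1 score of the partner summits had a median of 16.6 with quartiles of 6.77 and 40.2, against 6.49 with quartiles of 3.83 and 13.6 at Pitx1 sites without Tbx5. The middle ranges overlap in both cases, and these lists chose the members, so the values are a description. In tissue of mixed cells, binding in fewer cells and weaker binding per cell cannot be told apart. Shared sites over 100 kb from genes had medians of 12.4 for Tbx5 and 20.5 for Pitx1.

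The 2 scores were nearly unrelated within the shared sites. Spearman's rho was 0.13 over 3039 pairs, as a description, since all Tbx5 values share 1 library and all Pitx1 values another. It was 0.10 within 1 kb of gene ends, 0.12 inside genes and 0.14 outside them. In the quintile of lowest Tbx5 score the median Pitx1 score was 12.9, and in the quintile of highest Tbx5 score it was 23.4, while the quartiles of the lowest quintile already spanned 5.92 to 29.9. Both summits ranked in the best 10% of their list at 191 sites (6.29%). At 279 sites (9.18%) Pitx1 ranked in its best 10% while Tbx5 ranked below its list's median, and at 86 sites (2.83%) the reverse held. Taken singly, Pitx1 ranked in its best 10% at 28.1% of shared sites and Tbx5 at 15.7%. Pitx1 ranked above its list's median at 74.96% of shared sites and Tbx5 at 61.3%. The part of these single shares in the counts of 191, 279 and 86 was not tested.

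**Figure D2:**
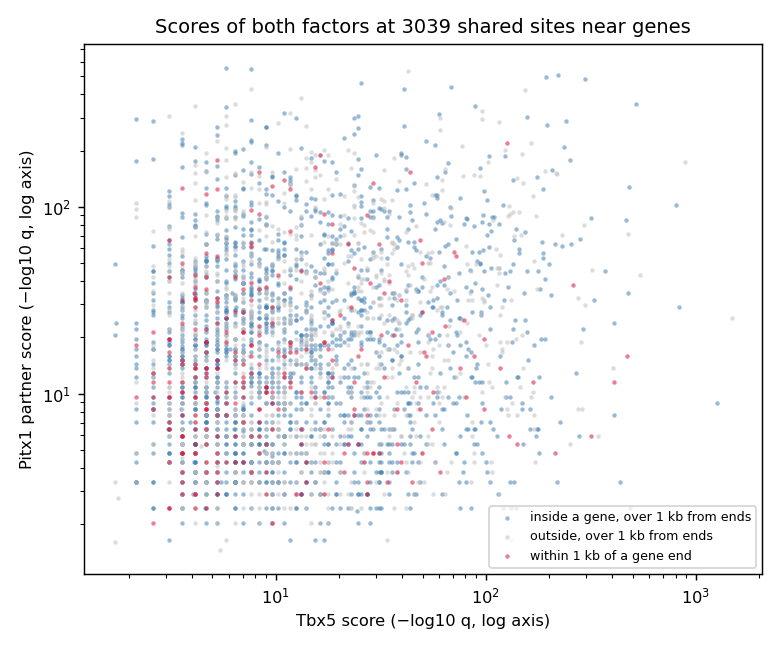
Tbx5 score (horizontal) against Pitx1 partner score (vertical) at the 3039 shared sites near genes, both −log10 q on log axes, 1 point per site and coloured by place. The points fill the plot with a weak upward trend, Spearman's rho 0.13; columns and rows of points are sites that share a score.

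Ordered by the worse of the Tbx5 and Pitx1 ranks, the first 3 sites lay in transcription factor genes of the limb. The lists hold 10273 Tbx5 and 54941 Pitx1 summits, so equal ranks are unlike shares of each list. An order by share of the list would differ. The first lay 13.1 kb inside Zbtb16, a zinc finger factor of limb patterning, at chromosome 9 position 48823153, with a Tbx5 score of 296.3 (rank 46) and a Pitx1 score of 484.0 (rank 22). The second lay deep in Pknox2, a TALE homeodomain gene, at chromosome 9 position 37030477, with a Tbx5 score of 515.6 (rank 9) and a Pitx1 score of 357.5 (rank 65). The third lay in Hoxa9, a homeobox gene of limb patterning, at chromosome 6 position 52226296. It lay 1.07 kb from the nearest gene end, start or finish, with scores of 219.6 for Tbx5 and 509.8 for Pitx1. All 3 sites were among the best 100 of each list, and no other shared site near a gene was.

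The other sites of the first 30 lay at genes of many kinds. Uvrag, an autophagy gene, had scores of 193.2 for Tbx5 and 496.0 for Pitx1, and Msrb3, a methionine sulfoxide reductase gene, had 240.6 and 289.6. Pard3, a cell polarity gene, had 194.7 and 275.8, and Mecom, a zinc finger factor gene, had 252.8 and 177.6. The collagen genes Col9a1 and Col1a2 each had 1 such site, inside Col9a1 with 122.8 for Tbx5 and 187.4 for Pitx1, and 15.8 kb beyond Col1a2 with 886.2 and 174.8. Lrmda had 2 of the 30 sites, as did Dnm3, a dynamin gene. Gata4, a zinc finger factor gene, had 68.6 and 436.5 and lay near the foot of the 30, and all 30 partners were also in the second Pitx1 list.

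High scores in 1 list met high or low scores in the other. Of the 10 highest Tbx5 scores, Pknox2, Col1a2 and Mrpl23 had Pitx1 ranks of 65, 421 and 4262, and of the 10 highest Pitx1 scores, Zbtb16, Hoxa9 and Uvrag had Tbx5 ranks of 46, 91 and 117. The top Tbx5 summit of the whole list, 2.80 kb beyond Gpr84, a G-protein coupled receptor gene, scored 1477 for Tbx5 and 25.5 for Pitx1. The next, inside Hsd11b2, a steroid dehydrogenase gene, scored 1252 and 8.90. Nln, a peptidase gene, held a site with 485.9 and 2.45. In the other direction, the highest Pitx1 partner lay inside Glis1, a zinc finger gene, with 553.3 for Pitx1 and 5.81 for Tbx5, and the next inside Dclk1, a kinase gene, with 549.8 and 7.64. A site inside Rora, a nuclear receptor gene, had 458.4 for Pitx1 and 25.4 for Tbx5.

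Shared sites mostly lay inside genes and far from gene ends. Of the 3039 sites, 281 (9.25%, interval 8.24% to 10.3%) lay at most 1 kb from a gene end, start or finish, 1685 (55.4%) inside a gene beyond that, and 1073 (35.3%) outside genes. Tbx5 sites without Pitx1 were placed alike, with 9.86% (9.04% to 10.7%) at gene ends, 55.2% inside and 35% outside. Pitx1 sites without Tbx5 were at gene ends more often, 17.0% (16.7% to 17.4%), an interval that does not meet that of shared sites. The median distance to the nearest gene end was 35.4 kb for shared sites, 26.8 kb for Tbx5 alone and 18.2 kb for Pitx1 alone. Exons, introns and UTRs were not distinguished here.

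**Figure D3:**
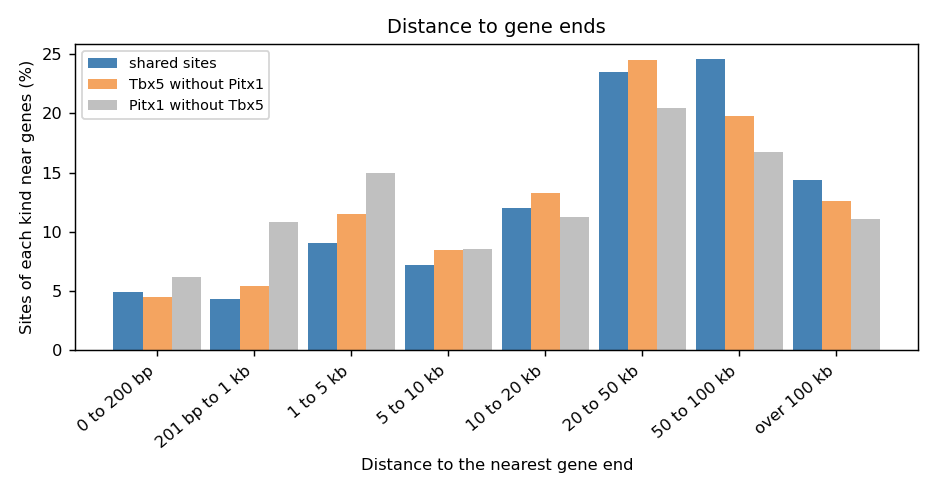
Percent of sites of each kind near genes (vertical axis) by distance to the nearest gene end (horizontal axis), for 3039 shared sites, 4877 Tbx5 sites without Pitx1 and 41746 Pitx1 sites without Tbx5. Shared sites are the tallest bar at 50 to 100 kb, 24.6%, and beyond, and Pitx1 sites without Tbx5 are the tallest in the bins up to 10 kb.

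The share of Tbx5 sites that carried Pitx1 did not run one way with distance from gene ends. It was 40.8% (interval 35.7% to 46.0%) at 0 to 200 bp, 33.2% (28.6% to 38.1%) at 201 bp to 1 kb and 32.9% (29.7% to 36.2%) at 1 to 5 kb. It then stood at 34.7%, 36.1% and 37.4% in the bins up to 10, 20 and 50 kb, at 43.7% (41.3% to 46.1%) at 50 to 100 kb and at 41.5% (38.5% to 44.6%) beyond. The share was thus lowest at 1 to 5 kb and highest at 50 to 100 kb, and these 2 intervals did not meet. Among Tbx5 sites over 100 kb outside any gene it was 43.4% (41.4% to 45.4%). With annotated starts in place of either end, 7.96% of shared sites, 7.50% of Tbx5 sites without Pitx1 and 15.1% of Pitx1 sites without Tbx5 lay within 1 kb of a start, on chromosomes with promoter entries.

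Among shared sites, median scores of both factors were lower at gene ends. The 281 sites there had medians of 8.29 for Tbx5 and 12.2 for Pitx1, against 10.3 and 16.6 for sites inside genes and 11.7 and 18.1 for sites outside. Tbx5 sites without Pitx1 had a median of 7.02 in each of the 3 places, and Pitx1 sites without Tbx5 one of 6.49. The gene-end share was 14.1% in the quintile of lowest Tbx5 score and 6.91% in the quintile of highest. The paired summits were 72 bp apart at the median at gene ends, 60 bp inside genes and 58 bp outside. Of the 191 sites in the best 10% of both lists, 7 lay at a gene end (3.66%, interval 1.49% to 7.40%).

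The strongest gene-end site lay in Hoxc5, a homeobox gene of the forelimb-level Hoxc group, at chromosome 15 position 103014676. It lay 668 bp from the nearest gene end, start or finish, with scores of 126.7 for Tbx5 and 219.0 for Pitx1. A site 33 bp outside Fzd2, a Wnt receptor gene, scored 29.1 and 134.3, and a site 64 bp inside Glis3, a zinc finger gene, scored 27.2 and 90.5. Lhx9, a LIM homeodomain gene of the limb bud, had a site 138 bp inside it with 18.6 and 81.1. Pth1r, the parathyroid hormone receptor gene of growing cartilage, had one 617 bp inside with 17.0 and 91.7, and Hes1, a Notch target gene, one 823 bp outside with 16.2 and 188.8. These 6 sites ranked 236 to 1788 among Pitx1 summits and 259 to 2866 among Tbx5 summits. The remaining 4 of the first 10 were at Tmem200b, Plin3, C330018D20Rik and D6Wsu163e.

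Each shared site was assigned to the gene that contained it or lay nearest, the shorter one where genes overlapped. By this rule 1924 of 21883 protein-coding genes had at least 1 shared site (8.79%), 559 had at least 2, 236 had at least 3 (1.08%) and 7 had at least 10. The 236 genes with 3 or more held 33.8% of all shared sites. They were large: the stretch of sequence assigned to them had a median of 374.1 kb, against 40.3 kb for genes with no shared site, and genes with 1 shared site had 134.7 kb. In the quintile of genes with the shortest stretches 1.60% had a shared site, and in the quintile with the longest 27%. Genes with more shared sites thus had longer stretches.

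**Figure D4:**
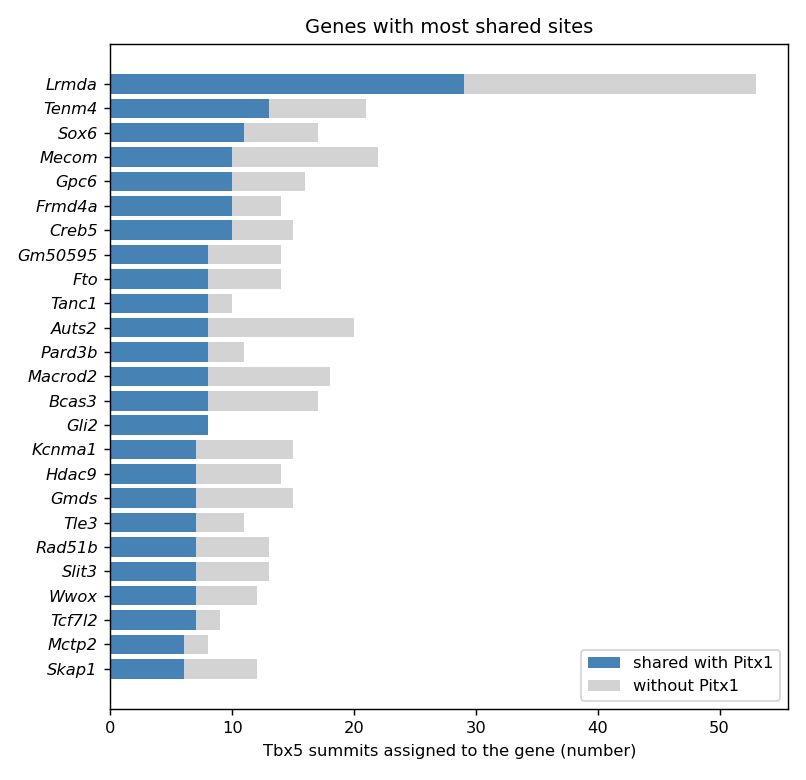
Number of Tbx5 summits assigned to each of the 25 genes with most shared sites, split into those shared with Pitx1 (blue) and those without (grey). Lrmda has 29 shared of 53, the next gene Tenm4 13 of 21, and all 8 summits of Gli2 are shared.

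Lrmda, at chr14:22019504-23056093, had most shared sites, 29 of its 53 Tbx5 summits, with 88 Pitx1 summits over a stretch of 1151.5 kb. Their Tbx5 scores ran from 3.08 to 341.1 with a median of 22.0, and their Pitx1 scores from 1.64 to 303.6 with a median of 12.2. None lay within 1 kb of a gene end, the nearest being 12.9 kb away and the farthest 477.9 kb, and 13 of the 29 partners were in the second Pitx1 list. Tenm4, a teneurin adhesion gene, followed with 13 of 21, and Sox6, a factor of cartilage differentiation, with 11 of 17. Mecom had 10 of 22, Gpc6, a glypican gene, 10 of 16, Frmd4a 10 of 14 and Creb5, a leucine zipper factor gene, 10 of 15.

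These leading genes differed in their scores. The median Tbx5 score of shared sites was 28.1 at Tenm4, 8.29 at Sox6, 16.2 at Mecom and 6.71 at Creb5, and the median Pitx1 score was 34.5, 33.6, 56.6 and 17.8. At Mecom, 4 of the 10 sites scored 134.7, 144.1, 252.8 and 316.9 for Tbx5, and the other 6 scored between 4.13 and 17.0. At Sox6, 1 site reached 58.5 and the other 10 lay between 2.61 and 15.4, while Pitx1 scores there went up to 134.3. Kcnma1, a potassium channel gene, had 7 shared sites with the highest median Tbx5 score of the 25 genes, 98.5, and a median Pitx1 score of 45.2.

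Tle3, a Groucho-type corepressor gene, had 7 shared sites of 11 although the gene itself spans 46.2 kb. Only 1 of the 7 lay inside it, and they reached as far as 94.4 kb from a gene end. Tcf7l2, a nuclear effector of Wnt signals, had 7 of 9, from 23 bp to 90.6 kb from gene ends. Slit3, a guidance ligand gene, also had 7, out of 13. Fto had 8 of 14 and Tanc1 8 of 10.

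Counted per length, other genes stood high. Among genes with 3 or more shared sites, Mrpl23 had 5.60 per 100 kb (4 sites in 71.4 kb) and Rpusd4, a pseudouridine synthase gene, 4.94 (4 sites in 80.9 kb). At Mrpl23 the highest Tbx5 score was 542.0 and the highest Pitx1 score 146.2. Lix1 had 4 sites at 4.22 per 100 kb with a median Tbx5 score of 74.0, and Hoxc4 3 sites at 3.88 with a median of 7.02. Atoh8, a basic helix-loop-helix factor gene, and Il17rd, an inhibitor of FGF signals, had 3 sites each, at 3.34 and 3.33.

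Of 299 genes with at least 5 Tbx5 summits, the median share that was shared was 42.9%, with quartiles of 33.3% and 60.0%. All were shared at 4 genes: Gli2 with 8, Ror1 with 6, and Sema5a and Usp29 with 5 each. None was shared at 8 genes, led by Pde4d, a phosphodiesterase gene with 7 Tbx5 and 34 Pitx1 summits that never came within 200 bp. The other 7, with 5 Tbx5 summits each, were Arhgap15, Basp1, Btbd35f8, Cblb, Chst8, Prex1 and Snd1. Btbd35f8 had no Pitx1 summit, and Cblb had 23.

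Most shared sites stood alone, with 2816 more than 5 kb from the next shared site, 95 runs of 2 and 11 runs of 3. Runs of 3 lay in Il17rd over 2.77 kb, in Lrmda over 3.53 kb and at Hes1 over 4.63 kb. The Hes1 run had Tbx5 scores of at most 16.2 and Pitx1 scores of 23.8 to 188.8. The Col1a2 run, 6.31 kb long, held the Tbx5 score of 886.2 beside a lowest one of 7.02. A further Pitx1 summit lay within 5 kb of 48.0% of shared sites and of 46.2% of Tbx5 sites without Pitx1, and a further Tbx5 summit within 5 kb of 17.6% and 15.0%.

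In 16 lists of limb and non-limb genes, the share of genes with a shared site went up to 70.4%, beside 8.79% over all protein-coding genes. The lists were drawn up with earlier results of these data known, so their order is a description only. The list of limb bud transcription factors stood highest, with 38 of 54 genes and a median of 2 shared sites, against a median of 0 over all genes. A Tbx5 summit of any kind, shared or not, was assigned to 44 of these 54 genes, beside 4084 of all 21883. Muscle lineage genes had 8 of 16, hedgehog pathway genes 7 of 15, fibroblast growth factor pathway genes 10 of 22, Wnt pathway genes 15 of 37 and cartilage genes 9 of 26. With the second, shorter Pitx1 list, muscle lineage genes had 3 of 16, hedgehog genes 7 of 15 and fibroblast growth factor genes 10 of 22. Bone morphogenetic protein pathway genes had 5 of 27 (10 with pairs within 500 bp, 3 with the second list and 2 with the better-scoring 50% of each list), retinoic acid pathway genes 5 of 17 and ectoderm genes 4 of 22. Lists of other cell types had 4 of 18 for endothelium, 2 of 14 for blood and 2 of 16 for nerve, and ribosomal protein genes had 3 of 30. Limb bud transcription factor genes had a median assigned stretch of 170.4 kb, against 45.1 kb over all genes, and the part of this length in their count was not tested. Summit lists hold no transcript levels, so the tissue could not be checked by marker expression.

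**Figure D5:**
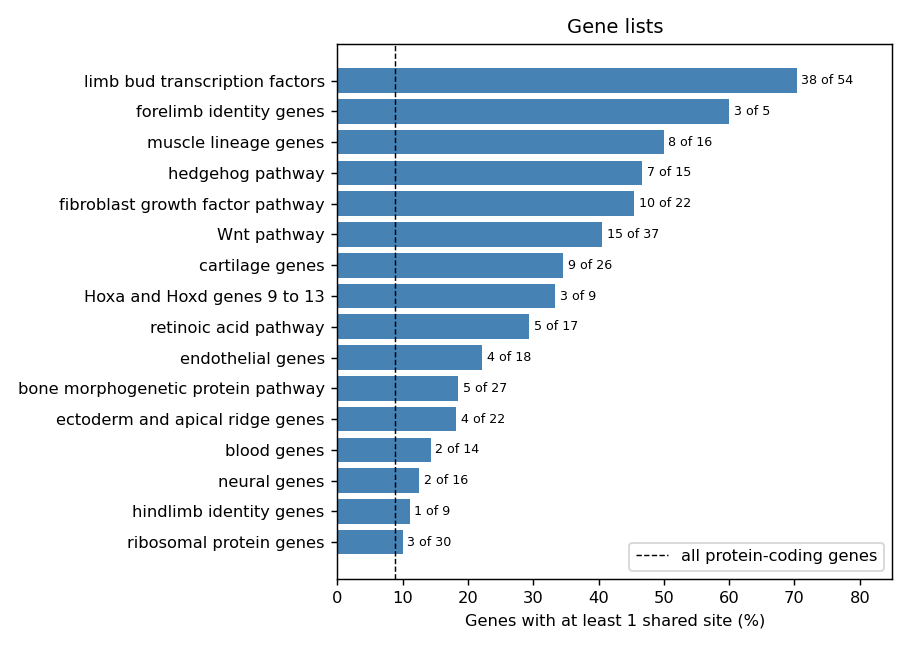
Percent of genes in each of 16 lists with at least 1 shared site (horizontal axis), with the number of genes beside each bar. The lists were drawn up with earlier results of these data known. The dashed line is the 8.79% of all protein-coding genes; limb bud transcription factors reach 70.4%, with 38 of 54 genes, and ribosomal protein genes have 3 of 30.

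Hedgehog signalling patterns the limb bud from its posterior edge, and 25 of the 34 Tbx5 summits at its genes were shared (73.5%), against 38.4% near all genes; without Gli2 it was 17 of 26 (65.4%). Gli2 and Gli3 encode the transcription factors of the pathway, and Gli2, at chr1:118834061-119054405, had 8 shared sites with Tbx5 scores of 2.15 to 32.8 and Pitx1 scores of 2.45 to 107.5. Gli3 had 5 of 8, with Tbx5 scores of 7.64, 288.4, 7.64, 5.23 and 41.6 beside Pitx1 scores of 18.1, 22.2, 6.49, 51.3 and 125.3. The co-receptor genes Boc, Cdon and Gas1 had 3 each, of 5, 3 and 4. The 3 Gas1 sites all lay outside the gene, 54.1 to 90.3 kb from its ends. Hhip, an antagonist, had 2 of 5, and the receptor gene Ptch1 had 1 of 1. Shh, Smo, Gli1, Ihh, Sufu, Kif7 and Lmbr1 had no Tbx5 summit assigned to them.

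Fibroblast growth factor signals keep the limb bud growing, and 20 of 32 Tbx5 summits at these genes were shared (62.5%), against 38.4% near all genes. Without Fgfr2 it was 16 of 28 (57.1%). Of the ligands, Fgf10 had 2 of 3 with Tbx5 scores of 19.4 and 9.62 beside Pitx1 scores of 8.90 and 43.2, and Fgf18 had 1 of 1. Fgf9, with 2 Tbx5 summits, and Fgf2, with 1, had none shared. Fgf8, Fgf4 and Fgf17 had no Tbx5 summit. The receptor gene Fgfr2 had 4 of 4 with Tbx5 scores of 2.61 to 34.7, and Fgfr1 had 1 with 152.3 for Tbx5 and 34.5 for Pitx1. Among feedback inhibitors, Dusp6 had 3 of 6, with 9.62, 15.4 and 149.6 for Tbx5 and 129.1, 158.3 and 134.3 for Pitx1. The first of these is the promoter site printed above. Il17rd had 3 of 3, and Spry4 2 of 3 with Pitx1 scores of 272.7 and 63.0. Spred2 had 2 of 3, Dusp4 1 of 1 and Spry2 1 of 2, while Spry1 and Spred1, with 1 Tbx5 summit each, had none shared.

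Among the 54 limb bud transcription factor genes, 123 of 250 Tbx5 summits were shared (49.2%), beside 38.4% near all genes. Gli2 and Gli3 count in this list as well as in the hedgehog list. The TALE homeodomain genes, whose products partner Hox proteins, included Meis2 with 6 of 9, Meis1 with 4 of 10, Pbx3 with 4 of 6 and Pknox2 with 4 of 6. The Ebf genes differed, with 6 of 11 at Ebf3, 5 of 10 at Ebf2 and 2 of 7 at Ebf1. Tbx18, a T-box gene, had 4 of 4, with Tbx5 scores of 34.7, 14.7, 38.6 and 115.0 and Pitx1 scores of 40.2, 26.4, 23.8 and 47.2. Foxp1 had 5 of 16 and Hes1 5 of 9. Alx4 had 3 of 3, Shox2 3 of 5, Lmx1b 3 of 6 and Foxp2 3 of 5. Twist1, with 3 Tbx5 summits, and Irx3, with 2, had none shared.

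The lists of limb identity genes differed in how many genes had a shared site, and also in how many had any Tbx5 summit. Of 9 hindlimb identity genes 1 had a shared site, and of 5 forelimb identity genes 3 did, beside 8.79% of all protein-coding genes. A Tbx5 summit of any kind was assigned to 1 of the 9 and to all 5. Shared were 1 of 3 Tbx5 summits at the hindlimb genes (33.3%) and 5 of 12 at the forelimb genes (41.7%), beside 38.4% near all genes. Of 9 Hoxa and Hoxd genes of groups 9 to 13, 3 had a shared site, with 4 of 7 summits shared. Tbx4, the hindlimb T-box gene, had 1 of 3, lying 1.11 kb from the gene with scores of 15.4 for Tbx5 and 45.2 for Pitx1. Pitx1, Isl1 and Hoxc9 to Hoxc13 had no Tbx5 summit, while the Pitx1 gene itself had 19 Pitx1 summits. Tbx5 had 1 of 5, inside the gene, with weak scores of 6.40 and 3.35. Of the forelimb-level Hoxc genes, Hoxc4 had 3 of 3 and Hoxc5 1 of 1, and Hoxc6 and Hoxc8 had none of 2 and 1. In the posterior Hox groups, Hoxd9 had 2 of 2, Hoxd11 1 of 1 and Hoxa9 1 of 3, with no shared site at the other 6 genes. These Hox genes have short assigned stretches, 8.4 kb at the median.

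In the Wnt list, 35 of 64 Tbx5 summits were shared (54.7%), against 38.4% near all genes. Without Tcf7l2 it was 28 of 55 (50.9%). Beside Tcf7l2, the receptor kinase genes Ror1 and Ror2 had 6 of 6 and 4 of 7, and Frzb, a secreted antagonist, had 3 of 5 with low Tbx5 scores of 3.10 to 6.40 and Pitx1 scores of 21.3 to 88.1. Wnt11 had 3 of 5, one of them with 136.0 for Tbx5 and 3.35 for Pitx1. Wnt5a, a ligand of limb outgrowth, had 2 of 2, and Lrp6 had 1 of 4. Apc and Dkk2, with 2 Tbx5 summits each, had none shared. Dkk1, Fzd1, Fzd8, Fzd10, Lgr5 and Rspo2, with 1 each, had none shared either. In the bone morphogenetic protein list 10 of 32 were shared (31.2%), 6 of them at the receptor gene Bmpr1b; without Bmpr1b it was 4 of 22 (18.2%). Bmp4, Bmp5 and Bmp7 had 1, 2 and 2 Tbx5 summits and none shared.

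Cartilage genes had 34 of 66 shared (51.5%, beside 38.4% near all genes), and 23 of 49 (46.9%) without Sox6. Sox6 had 11 of 17 and Sox5 5 of 12, while Sox9 had none of 1. The 6 shared sites of Bmpr1b count here as well as in the bone morphogenetic protein list. Runx3 had 3 of 4, Trps1 3 of 9 and Runx2 2 of 6, and a Runx2 site had a Pitx1 score of 263.6. Of the muscle lineage genes, Eya1 had 4 of 5 and Eya2 2 of 3, Lbx1, a gene of migrating muscle precursors, 1 of 2, and Pax3 1 of 4. Pax7 and Mef2c had 2 Tbx5 summits each and none shared, and Myf5, Myf6, Myod1, Myog, Met and Myh3 had no Tbx5 summit. In the retinoic acid list 7 of 25 were shared (28.0%): the synthesis gene Aldh1a2 had 2 of 3 and the receptor gene Rarb 2 of 11. All Tbx5 summits at ribosomal protein genes were shared, but there were only 3, at Rpl27, Rpl7 and Rps6, each within 200 bp of a gene end.

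The second, shorter deposited Pitx1 list holds 17783 of the 54941 summits and was deposited for the same sample, with the same peak names and positions; the rule did not use it. It held the partner of 57.1% of shared sites (interval 55.3% to 58.9%), against 29.0% (28.6% to 29.5%) of Pitx1 summits near genes without Tbx5. Partner summits score higher, so the shares were also set side by side within quintiles of Pitx1 score, where shared against unshared summits had 8.91% against 5.89% in the lowest, 14.6% against 10.3%, 21.9% against 17.7%, 47.1% against 38.6%, and 89.1% against 78.4% in the highest. The share was higher for shared summits in each quintile, and the intervals met in the 3 lowest. In the highest quintile the shared summits also scored higher, with medians of 43.2 against 32.7. No source used here says how the second list was made.

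By chromosome, the share of Tbx5 summits near genes that were shared ran from 32.1% on chromosome 8 to 43.6% on chromosome 6 among the autosomes. The X chromosome had 15 Tbx5 summits near genes and 0 shared, with an exact interval of up to 21.8%. Of these 15, 5 were assigned to Btbd35f8, which had no Pitx1 summit. The Y chromosome had 16 and 1 shared (6.25%, interval 0.158% to 30.2%). Of the unshared Tbx5 summits near genes, 761 (15.6%) had a Pitx1 summit 201 to 500 bp away and 1258 (25.8%) had none within 20 kb. At the limit of reach, 82 shared sites 90 to 100 kb outside a gene had medians of 11.4 for Tbx5 and 19.3 for Pitx1, and 48 at 100 to 110 kb had 14.7 and 15.9.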

How the data were processed

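Chromatin immunoprecipitation libraries of 1 sample per factor were used. The deposited summit lists hold position, name and score per peak; the authors' score is read as a −log10 q-value because of its lowest values and the caller's usual format, and no header states its scale. MACS2 2.1.1.20160309, HOMER, Bowtie2 2.2.6 and Bowtie 1.1.2 are named, per the submitters' processing notes, with no role; the build is mm10. Control library, filters, pooling and depth, each not given in the sources used here, could change the scores. The second Pitx1 list adds a deposited score and a pair of distances that are not explained; only its membership is reported.

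Positions are the summit's 1-based base. Pairs lay within 200 bp, and genes were the 21883 protein-coding genes of RefSeq GRCm38.p6, within 100 kb. Intervals are 95% Clopper-Pearson (scipy 1.17.1). The pairing was tested on simulated data. Named were the 30 sites and 10 gene-end sites best in both lists by the worse rank, the 10 best at most 5 bp apart, the 25 genes with most sites, the 10 densest genes and runs, genes with all or none of at least 5 Tbx5 summits shared, and listed genes with 3 or more sites; further genes were named after their values were seen, and some items under these rules are not reported here. Members, lists and rules were chosen with earlier results of these data known. Alternatives changed the pair distance, the Pitx1 list, the score limit, the reach and the pairing.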

Additional observations from a re-analysis of the deposited data

How the results depend on the processing

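No paired analysis was possible because each factor has 1 sample and no replicate numbers. Of 48 recomputed values, 28 stayed within the set limits and 20 moved. The limit for counts was 1.5-fold, so 2195 shared sites with pairs within 100 bp, beside 3039, counts as within it. Only 1 Pitx1 summit served 2 sites, so allowing each summit a single pair could hardly move a value. With pairs within 100 bp, 27.7% of Tbx5 sites near genes were shared, 142 genes had at least 3 sites, and the median distance was 40 bp; within 500 bp, 48.0% were shared and it was 81 bp. With the second Pitx1 list, 1735 sites (21.9%) were shared, 5.53% of them at gene ends, 1192 genes had at least 1 site and 124 at least 3, and the medians were 11.7 for Tbx5 and 33.6 for Pitx1. With the better-scoring 50% of each list, 1425 sites (35.5%) were shared, 7.16% at gene ends, 1032 genes had at least 1 site and 90 at least 3, and the medians were 22.8 and 27.3. Within 20 kb of genes, 11.9% lay at gene ends. With the better-scoring 50%, genes with a site numbered 1 of 5 for forelimb identity, 1 of 9 for Hoxa and Hoxd, 3 of 17 for retinoic acid, 5 of 16 for muscle and 1 of 22 for ectoderm. With the second list, neural genes had 0 of 16, blood genes 1 of 14 and ribosomal protein genes 1 of 30. By construction, the stricter settings leave fewer summits. All 25 genes with most shared sites kept at least 1 site under each alternative, which their choice by number of sites made nearly certain. Of them, 13 to 23 stayed among the first 25, the fewest with the better-scoring 50% of each list. The lack of replicates and of depth limits every value; scores of the 2 lists are on unknown depths, and a nearest gene is a label of position.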
